A study of Mus musculus with 12 samples.

Results

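Mouse gut muscle cells kept for 28 days in a serum medium on plastic were compared with pieces of the muscle they came from. The comparison used 6 of the 12 RNA sequencing libraries of the study, 3 on each side, and all 6 came from wild-type mice. The cultured side, called P plate here, was primary cells of the intestinal muscle grown in 2 dimensions in well plates in P medium. The labels call P medium the proliferation medium, and it is DMEM with 10% fetal bovine serum and ABAM. The other side was strips of intestinal muscle, labelled as native tissue and as the positive control. The labels give the strips the same day, 28, and the same cell source as the cultures, and both sides went through the same column extraction of total RNA and the same TruSeq library kit. The sources used here do not give strain, sex, age, the segment of intestine or whether replicates came from separate animals. The p-values therefore measure only the spread between these libraries, which may be technical. The other 6 libraries are the same kind of cells, also at day 28, in a second medium, M, on well plates or on gelatin scaffolds. The labels call M the differentiation medium. M medium is Advanced DMEM/Ham's F-12 with N2, B27 without vitamin A, N-acetylcysteine, HEPES, GlutaMAX and ABAM, to which Noggin at 100 ng/mL, R-spondin1 at 1 μg/mL and Y27632 at 10 μM were added, and its listed components include no serum. Noggin blocks BMP signals, R-spondin1 strengthens Wnt signals and Y27632 is a kinase inhibitor. These 6 libraries entered the shared estimate of spread and 1 comparison near the end.

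The muscle coat of the gut contracts through smooth muscle cells, whose actin, myosin and calcium channels set tone. Interstitial cells of Cajal pace these cells, enteric neurons and glia steer them, and fibroblast-like cells positive for PDGFRA, macrophages, vessels and the outer mesothelium lie between and over them. Smooth muscle cells do not leave the cell cycle for good and can lose contractile genes and make matrix when placed in culture, a change long known as phenotypic switching. Serum response factor, SRF, drives contractile genes through a short DNA element called the CArG box, together with its partner myocardin. A strip holds all of these cells and a plate holds those that attached and lasted. In bulk RNA, fewer cells of a type and less RNA per cell cannot be told apart, and this holds for every result given here.

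The 3 P plate libraries held 32784531 to 40935111 reads counted to genes and the 3 strips 21396485 to 76361847. Levels are given as reads per 1000000 counted (CPM) after TMM scaling, a correction for differences in composition between libraries. In this set, 2 libraries stood apart from their own side. P plate replicate 1 correlated with the other P plate libraries at r = 0.949 and 0.955 across genes, against 0.982 between those. It was rich in macrophage genes and poor in mesothelial genes. Strips replicate 2 carried the most epithelial RNA, 4509 CPM over 27 epithelial genes against 373 and 549 in the other strips. Counts for several lists are therefore also given without both libraries.

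Of 17700 genes tested with edgeR's quasi-likelihood test, 5390 were higher in the P plate (30.5%) and 5785 were lower (32.7%) at an adjusted p under 0.05. With library totals alone as the scale, the calls were 3669 higher and 7304 lower, and with upper-quartile scaling 4291 and 6697, so the balance of directions rests on the scaling. No gene called in the main fit was called in the opposite direction by any of the 17 alternative fits. Beside the test, 12001 genes (67.8%) had P plate and strip values that did not overlap. At least 2-fold changes numbered 2716 higher and 4287 lower, and changes of 16-fold or more numbered 466 and 1527. In addition, 96 genes with at least 2 CPM in strips had no read in any P plate library, against 5 genes the other way.

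**Figure D1:**
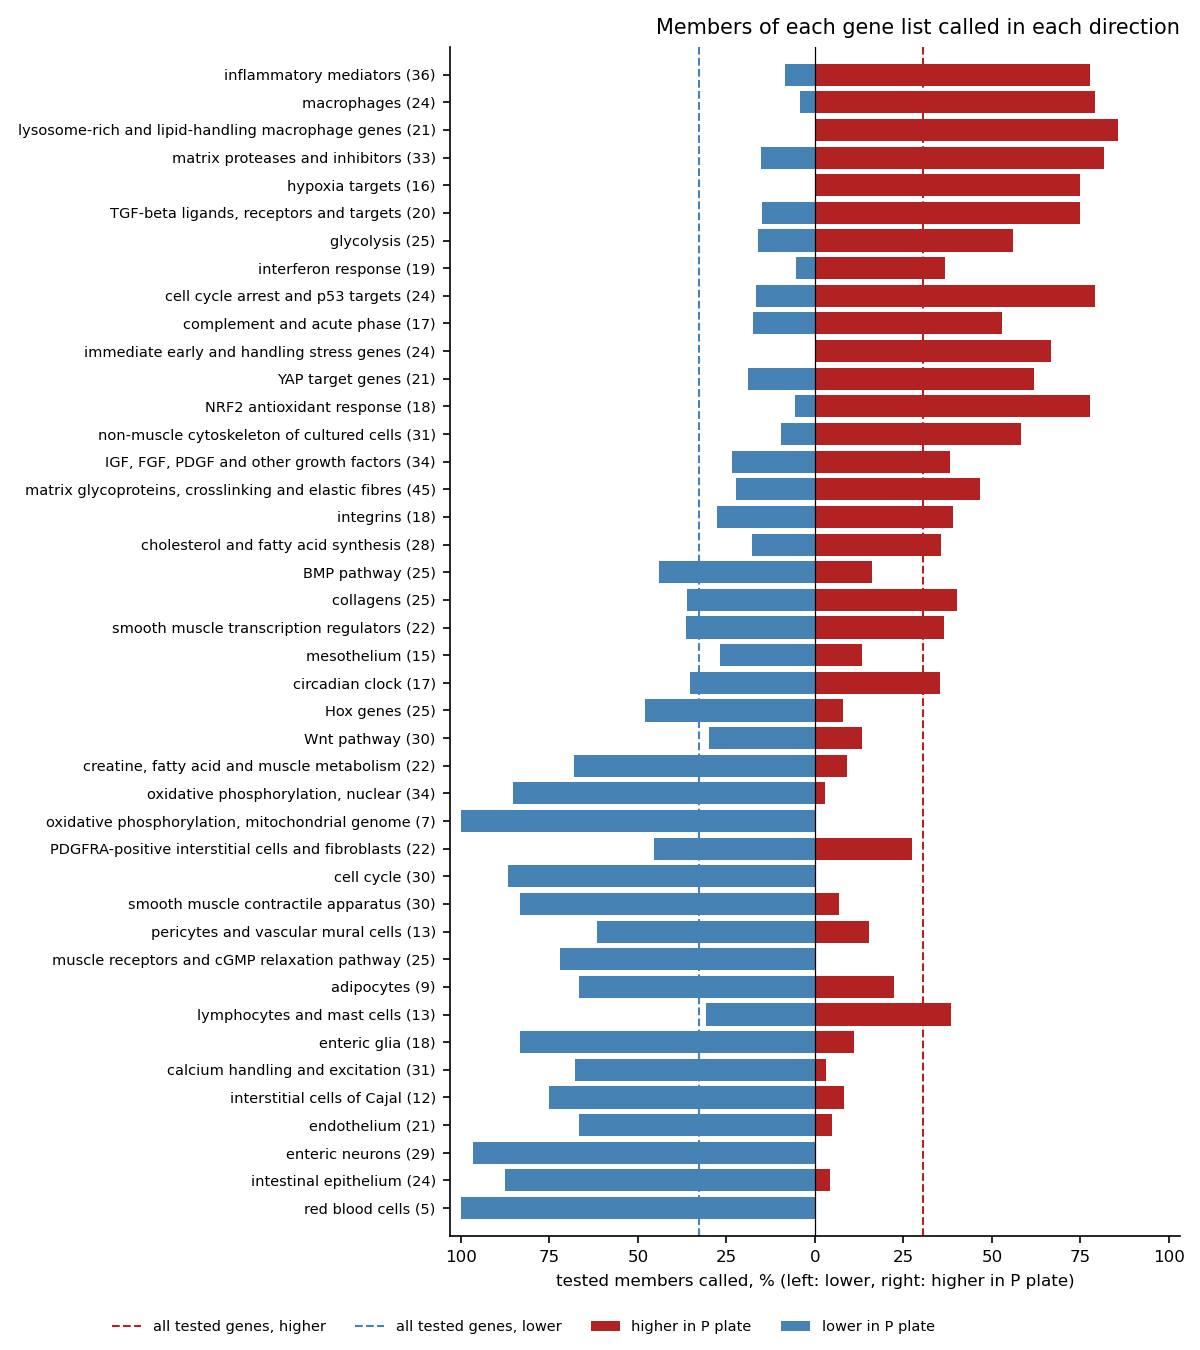
Percent of the tested members of each of 42 gene lists that were lower (left) or higher (right) in the P plate than in strips, with dashed lines at the shares for all genes, 32.7% and 30.5%. Red blood cell, mitochondrial genome and neuron genes reach furthest left, and lysosome and matrix protease genes furthest right.

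The 5 most abundant nuclear genes changed identity between the sides. In strips these were Myh11, Acta2, Actg2, Col3a1 and Mylk, which encode smooth muscle myosin, the 2 smooth muscle actins, a fibrillar collagen and the kinase that switches myosin on. In the P plate they were Fn1, Thbs1, Sparc, Fth1 and Ctsb, which encode fibronectin, thrombospondin 1, a collagen-binding matrix protein, ferritin heavy chain and a lysosomal protease. Among genes with at least 20 CPM, those that rose most by fitted fold change included Emx2, Gpnmb, Mmp12, Akr1c18, Mmp3 and Saa3. Emx2, a homeobox gene of the urogenital tract and forebrain, had 14.3, 40.1 and 35 CPM in the P plate and 1 read in the 3 strips together. Its antisense neighbour Emx2os had 4.84, 8.21 and 8.67 CPM and no read in strips, which makes it at least 354-fold higher. The starts of the 2 genes overlap on opposite strands, and whether strand was used in counting is not given, so their reads may be mixed. The largest falls included genes of absorptive epithelium (Alpi, Apoa4, Cdhr2, Fabp1), Cckar and Cbln2, and 69.8% of the exonic bases of Apoa4 lie under exons of another gene. Cckar, the receptor for cholecystokinin, had 37.6, 47.8 and 43.5 CPM in strips and no read in the P plate, at least 1439-fold lower.

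Contractile genes fell broadly but unevenly. Of 30 members of the contractile list, 25 were lower, 2 were higher and 3 missed the threshold. The median log2 difference was -1.82, against -0.03 over all genes tested. Summed over the list, the P plate held 19986, 15378 and 26704 CPM and the strips 71685, 74079 and 73263 CPM. The 2 sides did not overlap.

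Myh11, smooth muscle myosin heavy chain, stood at 1183, 367 and 680 CPM in the P plate and 11160, 12965 and 11500 CPM in strips. It fell 16-fold, a log2 difference of -4.0 (SE 0.53, adjusted p = 9.66e-05). Even the highest P plate library lay far below the lowest strip. Acta2, smooth muscle alpha-actin, fell far less, from 9621, 9534 and 9502 CPM to 3396, 1730 and 4069 CPM (log2 difference -1.64, SE 0.37, adjusted p = 0.00297). Actg2, the actin typical of visceral muscle, had 1217, 228 and 691 CPM against 7049, 6741 and 7386 CPM (log2 difference -3.31, SE 0.72, adjusted p = 0.00241). Per kilobase of exon, strips held similar Actg2 and Acta2, at 4533 and 4350 CPM per kb, while the P plate held 457 and 1396 CPM per kb.

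Some genes of muscle structure and regulation fell by far more than the list's median. Synm, which encodes the intermediate filament protein synemin, had 1.75, 5.1 and 5.42 CPM against 865, 1036 and 968 CPM (log2 difference -7.87, SE 0.73, adjusted p = 9.14e-06). Pcp4, a small regulator of calmodulin, had 5 reads in the 3 P plate libraries together and 121, 109 and 118 CPM in strips. Mylk, the myosin light chain kinase, was narrow on both sides, with 587, 599 and 551 CPM against 5905, 6789 and 6459 CPM (log2 difference -3.46, SE 0.31, adjusted p = 7.5e-06). Sgca (-4.33), which encodes alpha-sarcoglycan and was low in strips, Synpo2 (-3.86) and Myom1 (-3.23) also fell by over 3 on the log2 scale. In this list Cnn1 (-1.59), Tpm1 (-1.23) and Lmod1 (-1.07) moved like Acta2.

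Some members kept their level or rose. Des, which encodes desmin, the main intermediate filament of muscle, had 1305, 2062 and 3868 CPM against 3182, 3238 and 3342 CPM and did not pass (log2 difference -0.43, SE 0.52, adjusted p = 0.486). Its P plate libraries spanned the strips on both sides. Vcl, which encodes the adhesion protein vinculin, rose from 216, 255 and 262 CPM to 468, 1055 and 963 CPM (log2 difference 1.76, SE 0.30, adjusted p = 0.000454). Itga8, an integrin of smooth muscle and fibroblasts, rose by 1.29 (adjusted p = 0.00158). Tagln, or SM22, had 288, 242 and 614 CPM against 472, 420 and 478 CPM (log2 difference -0.26, adjusted p = 0.597). The annotation puts 67.9% of the exonic bases of Tagln under exons of Pcsk7 or Gm48529, so its counts may hold only part of its reads and are uncertain.

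**Figure D2:**
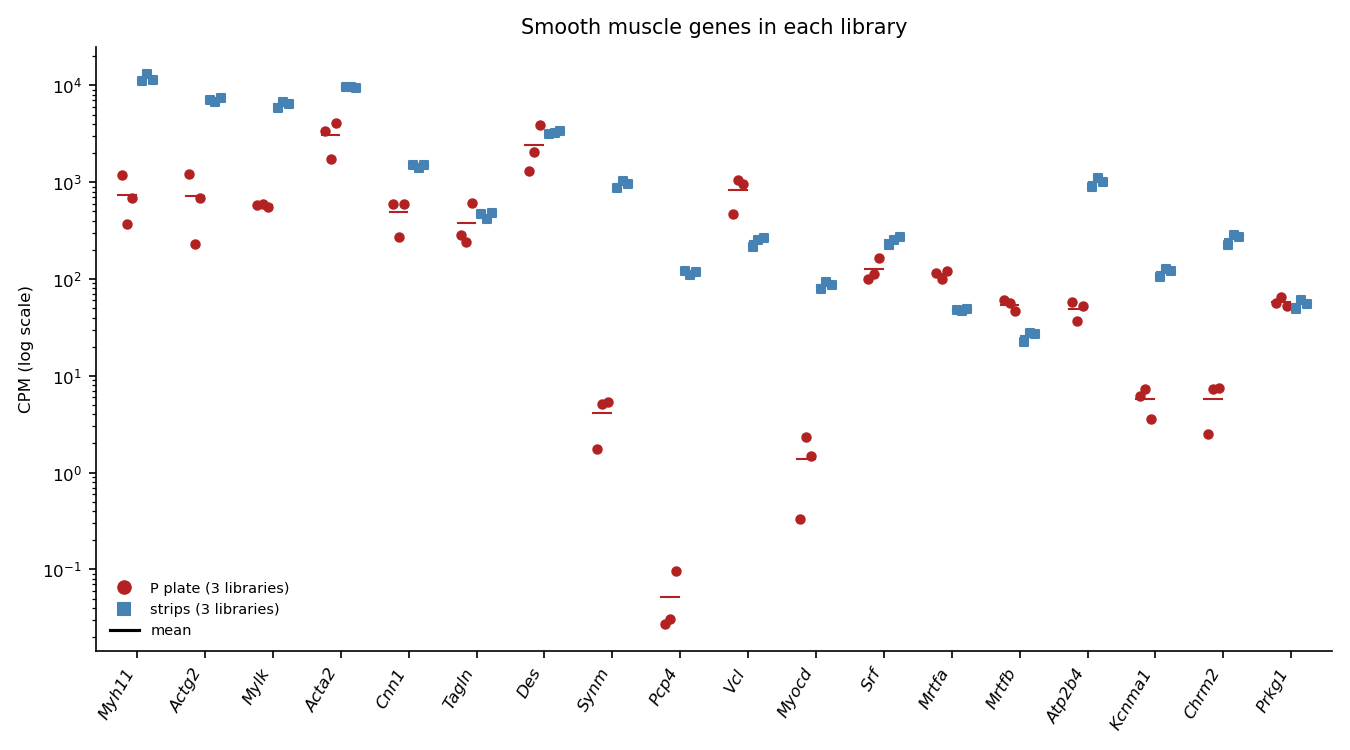
CPM on a log axis of 18 contractile, regulator and excitation genes in each of the 3 P plate and 3 strip libraries. Myh11, Synm, Pcp4 and Myocd are separated by wide gaps, Des, Tagln and Prkg1 overlap, and Vcl, Mrtfa and Mrtfb lie higher in the P plate.

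Among 26 contractile genes with a RefSeq promoter, 5 had a CArG box, a match to CC, then 6 letters of A or T, then GG, on either strand, within 250 bases before to 50 after the start (19.2%). Over all 27025 genes with a promoter in the table, 488 had one (1.81%). These were Myl9, Myl6, Vcl, Myom1 and Dmd. The stretches for Myl9 and Vcl are shown because these genes moved in opposite directions with a matching element, Myl9 by -2.66 and Vcl by 1.76 on the log2 scale. Both are on the plus strand of GRCm38.p6, with the box in capitals, Myl9 at chr2:156775263-156775362 and Vcl at chr14:20929148-20929247.
Myl9: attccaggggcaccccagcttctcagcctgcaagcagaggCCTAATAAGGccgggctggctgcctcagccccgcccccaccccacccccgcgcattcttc
Vcl: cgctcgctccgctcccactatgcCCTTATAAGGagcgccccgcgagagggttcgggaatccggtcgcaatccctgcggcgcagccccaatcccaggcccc
The box begins 161 bases before the start of Myl9 and 227 bases before that of Vcl. A match describes these letters only, and a gene without one may carry the element outside the window.

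The regulators of the contractile program moved both ways. Of 22 tested, 8 were higher and 8 lower (36.4% each), with a median log2 difference of 0.04. These shares were near the 30.5% and 32.7% over all genes tested. Myocd, which encodes myocardin, had 0.328, 2.31 and 1.5 CPM in the P plate and 79.3, 93.1 and 86.2 CPM in strips (log2 difference -5.98, SE 0.78, adjusted p = 8.8e-05). Srf itself fell by 1.0 (SE 0.20, adjusted p = 0.00158), from 227, 251 and 273 CPM to 101, 112 and 163 CPM. The 2 other coactivators of SRF, which respond to free actin, went the other way: Mrtfa rose by 1.24 (adjusted p = 9.77e-05) and Mrtfb by 1.09 (adjusted p = 3.4e-05). The mesenchymal factors of the gut wall Foxf1 (-2.17) and Foxf2 (-1.86) fell, as did Tbx2 (-2.71) and Tbx3 (-3.34). Hmga2, a chromatin protein of embryonic and growing cells, rose from under 1 CPM in each strip to 92.7, 12.1 and 52.9 CPM (log2 difference 6.52, SE 0.72, adjusted p = 2.83e-05). Etv4 (3.44), Prrx1 (2.87), Gata6 (2.09) and Elk3 (1.80) also rose, while Klf4, often linked to phenotypic switching, did not pass (-0.23, adjusted p = 0.497).

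Genes that make the muscle cell excitable were also lower. Of 31 genes of calcium handling and excitation, 21 were lower and 1 was higher, with a median of -2.49. Pln, which encodes phospholamban, the brake on the calcium pump, had 2 reads in all P plate libraries together and 44.5, 54.9 and 43.5 CPM in strips. However, 64.7% of its exonic bases lie under exons of Cep85l, so its level is uncertain. Casq2, a calcium store protein, fell from 86.7, 136 and 79.2 CPM to 0.739, 1.32 and 1.56 CPM (log2 difference -6.38, SE 0.44, adjusted p = 1.67e-06). The potassium channel Kcnk3 fell most among the channels named here (-7.0). The potassium channel Kcnma1 (-4.36), the ryanodine receptors Ryr2 (-4.14) and Ryr3 (-4.47) and the calcium pump Atp2b4 (-4.34) fell by similar amounts. Cacna1c, the main L-type calcium channel, fell less, by 1.67 (adjusted p = 9.05e-05). The ubiquitous calcium release and pump genes Itpr1 (0.01), Atp2a2 (0.29) and Atp2b1 (0.04) did not pass and overlapped between the sides. Orai1, the pore of store-operated entry, was the member that rose (0.73, adjusted p = 0.00734), but not with library totals as the scale (0.45, adjusted p = 0.0598).

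Receptors followed. Of 25 genes for receptors and the cGMP relaxation pathway, 18 were lower and none was higher. Chrm2, the most abundant muscarinic receptor of gut muscle, had 2.49, 7.35 and 7.4 CPM against 223, 283 and 273 CPM (log2 difference -5.50, SE 0.59, adjusted p = 2.5e-05). Chrm3, the receptor that starts cholinergic contraction, fell by 1.87 (adjusted p = 0.00114). Tacr2, the neurokinin receptor of gut muscle, had 5 reads in the P plate libraries together and 24.2, 69 and 27.7 CPM in strips. Vipr2 (-4.74), Adrb3 (-4.55) and P2ry1 (-4.43), receptors for relaxing signals, also fell. Of the cGMP pathway, the nitric oxide receptor subunits Gucy1a1 (-2.84) and Gucy1b1 (-2.41) fell. The kinase Prkg1 had 56.8, 65.2 and 52.3 CPM against 49, 60.5 and 54.9 CPM and did not pass (0.09, adjusted p = 0.757).

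Markers of the cells that work with muscle were lower in the P plate. Of 12 genes of interstitial cells of Cajal, 9 were lower and 1, Elovl5, was called higher by 0.32, a call lost in 9 of 17 alternative fits, among them that without P plate replicate 3 (0.22, adjusted p = 0.13). Kit, the receptor that defines these cells, had 0.547, 0.277 and 0.351 CPM against 108, 142 and 140 CPM (log2 difference -8.35, SE 0.73, adjusted p = 6.56e-06). Ano1, their pacemaker chloride channel, fell from 217, 272 and 263 CPM to 16.8, 25.8 and 16.3 CPM (log2 difference -3.68, SE 0.22, adjusted p = 9.15e-07). For both genes all P plate libraries lay below all strips.

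All but 1 of the 29 enteric neuron genes were lower, with a median of -6.51, and summed levels were 175, 169 and 254 CPM in the P plate and 3191, 3017 and 3960 CPM in strips. Elavl4, the RNA-binding protein HuD, fell from 91.5, 98.9 and 131 CPM to 0.246, 0.769 and 0.67 CPM (log2 difference -7.59, SE 0.45, adjusted p = 7.68e-07). Chat, which makes acetylcholine, had no read in the P plate and 5.34, 5.71 and 7.22 CPM in strips, at least 204-fold lower. Nos1, which marks nitrergic neurons, fell by 6.38 (adjusted p = 4.24e-06). Npy was the member that did not pass.

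Glial genes fell less, 15 of 18, with a median of -2.46. Sox10, the glial lineage factor, stood at 5.61, 4.43 and 10.4 CPM against 60.8, 73.6 and 85.6 CPM (log2 difference -3.43, SE 0.42, adjusted p = 5.87e-05). S100b fell by 2.90 and Gfap by 1.47. Without the 2 libraries that stood apart, 11 glial genes were lower, and Gfap was no longer called (-1.0, adjusted p = 0.0845). The members higher in the P plate were Cryab (1.12), a small heat shock protein made by many cells, and Gfra3 (1.56).

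Genes of fibroblasts and PDGFRA-positive cells moved both ways. Of 22 genes, 6 were higher (27.3%, against 30.5% over all genes tested) and 10 lower (45.5%, against 32.7%). Pdgfra rose from 106, 105 and 127 CPM to 505, 1565 and 1059 CPM (log2 difference 3.21, SE 0.50, adjusted p = 0.000267). Fbln2 (3.01), Lum (1.97) and Thy1 (1.79) rose with it. Dpt, which marks fibroblasts across tissues, fell from 147, 46.1 and 107 CPM to 0.903, 0.584 and 0.255 CPM (log2 difference -7.40, SE 0.60, adjusted p = 4.02e-06). Clec3b (-7.72) and Scara5 (-4.15), markers of adventitial fibroblasts, and Kcnn3 (-3.92) and P2ry1, through which PDGFRA-positive cells relax muscle, also fell.

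Most vessel genes fell. Of 21 endothelial genes 14 were lower, 1 was higher and 6 did not pass, with a median of -4.72. Pecam1, or CD31, had 0.849, 0.369 and 0.0319 CPM against 23.3, 25.4 and 45.5 CPM (log2 difference -6.19, SE 0.84, adjusted p = 0.000114). Cdh5 (-6.34) and Cldn5 (-8.31), genes of endothelial junctions, fell, while Flt1, a VEGF receptor, rose by 2.39 (adjusted p = 0.00424). Of 13 mural cell genes 8 were lower, 2 were higher and 3 did not pass. The falls were led by Rgs5, from 1256, 1393 and 1169 CPM to 24.3, 15.4 and 9.82 CPM (log2 difference -6.27, SE 0.54, adjusted p = 5.73e-06). Pdgfrb rose from 18.8, 19.9 and 26 CPM to 193, 188 and 264 CPM (log2 difference 3.31, SE 0.22, adjusted p = 1.46e-06), and Ndufa4l2 rose by 2.91 (adjusted p = 0.01).

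Mesothelial genes differed widely between the P plate libraries. Over 15 genes the P plate held 633, 5436 and 4421 CPM and strips 4707, 4823 and 4052 CPM. Msln had 24.3, 524 and 551 CPM against 1025, 1212 and 866 CPM and did not pass (log2 difference -1.50, SE 0.75, adjusted p = 0.104). Without P plate replicate 1 it was called lower (-0.98, adjusted p = 0.00129). The list had 2 genes higher (13.3%) and 4 lower (26.7%), both under the 30.5% and 32.7% over all genes tested. Without the 2 libraries that stood apart, 5 were higher and 6 lower. The 2 higher with all libraries, Upk1b (1.52) and Wt1 (0.91), lost their calls in 11 and 12 of 17 alternative fits. Among the lower, Nkain4 (-1.23) lost its call in 6. Krt19 (-3.43) and Aldh1a2 (-2.64) fell.

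Epithelial and red blood cell genes were near 0 in the plates. Of 24 epithelial genes tested, 21 were lower, and over all 27 of the list the P plate held 27, 7.19 and 7.05 CPM. Of that, Lyz1 alone gave 19.9 CPM in replicate 1; it encodes a lysozyme close in sequence to Lyz2, and its rise is uncertain. Epcam fell from 13.4, 64.2 and 12.1 CPM to 0.184 CPM or less. Globin and other red cell genes summed to 257, 121 and 65.6 CPM in strips and 0.0274, 0.184 and 4.91 CPM in the P plate. Lymphocyte and mast cell genes moved both ways, with 5 of 13 tested higher (38.5%) and 4 lower (30.8%), near the shares over all genes tested. The 22 genes of the list summed to 51.6, 32.4 and 46.9 CPM in the P plate and 13.9, 7.59 and 10.5 CPM in strips. Il7r, a cytokine receptor, rose by 7.45 to 7.69, 3.32 and 5.52 CPM, and Il1rl1, the IL-33 receptor, by 4.10. Trac, the T cell receptor alpha constant region, rose by 2.37, while the T cell gene Cd3e had no read in the P plate. The other 2 called higher, Cd4 and Ms4a2, overlapped between the sides and lost their calls when any 1 strip library was left out.

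**Figure D3:**
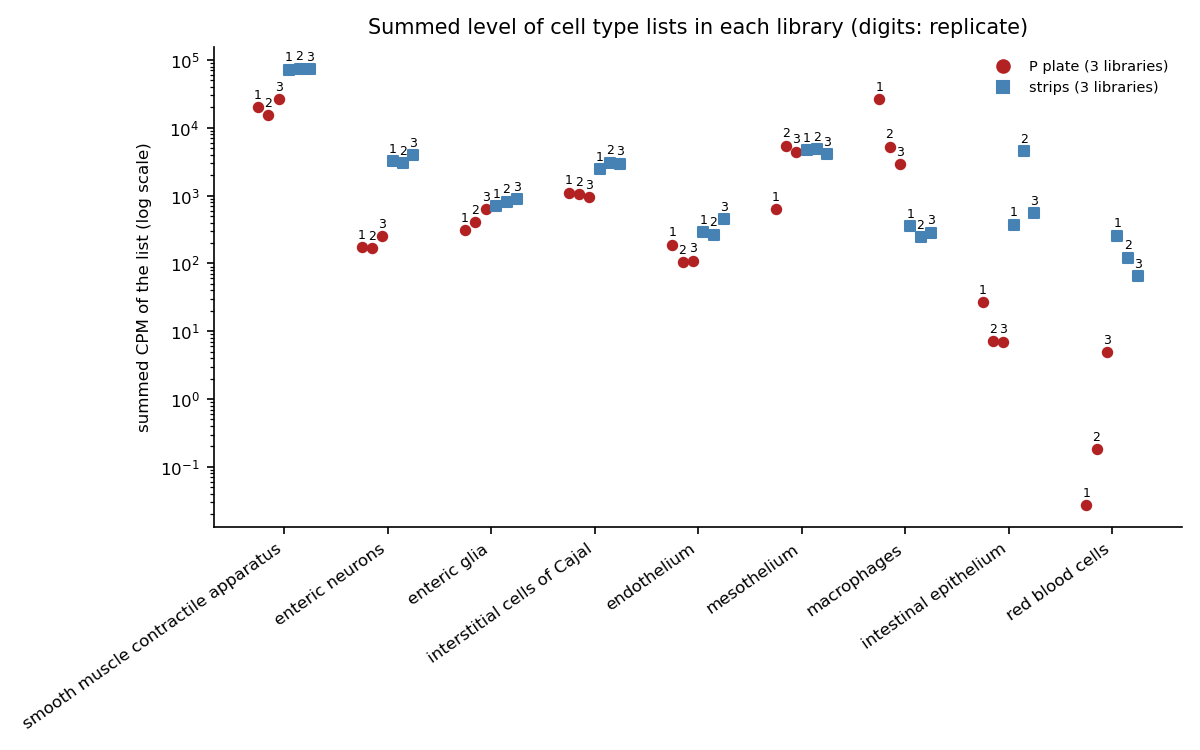
Summed CPM on a log axis of 9 cell type lists in each library, with digits for the replicate number. Neuron, epithelium and red blood cell sums are lower in every P plate library, macrophage sums are higher, and P plate replicate 1 has the highest macrophage and lowest mesothelium sum of its side.

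Macrophage genes rose. Of 24 tested, 19 were higher and 1 was lower, with a median of 5.13, and sums were 26150, 5296 and 2878 CPM in the P plate against 351, 246 and 283 CPM in strips. Lyz2, lysozyme, gave much of this with 13843, 2256 and 1586 CPM against 71.1, 37.3 and 37.1 CPM (log2 difference 6.93, SE 0.94, adjusted p = 0.00011). Cd68, a lysosomal membrane protein of macrophages, had 844, 197 and 108 CPM against 5.72, 4.55 and 5.4 CPM (log2 difference 6.19, SE 0.75, adjusted p = 5.47e-05). Adgre1 (F4/80) and the common leukocyte gene Ptprc rose by 5.24 and 5.52. All P plate libraries were above all strips for these genes, and replicate 1 was the highest of the P plate.

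The macrophage genes differed among themselves. Csf1r, the receptor for the growth factor of macrophages, rose by only 2.41 (adjusted p = 0.00695), from 75.2, 74.5 and 67.2 CPM to 776, 295 and 79.6 CPM. Without the 2 libraries that stood apart it did not pass (1.39, adjusted p = 0.0537). Cd74, the invariant chain of antigen presentation, fell from 19.9, 4.92 and 19.7 CPM to 1.86, 2.58 and 0.829 CPM (log2 difference -3.08, SE 0.62, adjusted p = 0.0015). Lyve1, Cx3cr1 and Timd4, genes of resident macrophages, did not pass. Cd163 was called higher on replicate 1 (180, 14.4 and 0.606 CPM against 4.13, 3.21 and 4.79 CPM), its libraries overlapped, and without that library it did not pass (0.86, adjusted p = 0.535).

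Genes for lysosomes and lipid handling of macrophages rose in 18 of 21 cases and fell in none. Gpnmb, a lysosomal glycoprotein, had 3461, 771 and 582 CPM in the P plate and 1.1, 0.959 and 1.17 CPM in strips (log2 difference 10.52, SE 0.94, adjusted p = 7.27e-06). Spp1, or osteopontin, had 8261, 769 and 1330 CPM against 6.74, 8.17 and 5.38 CPM (log2 difference 9.0, SE 1.2, adjusted p = 0.000102). Trem2, a lipid receptor, rose by 6.83 and Arg1 by 7.23. Without the 2 libraries that stood apart, 18 were higher and 2 lower, with a median of 3.00 in place of 4.06.

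Inflammatory mediators rose with them: 28 of 36 were higher and 3 lower, with a median of 5.41. Saa3, an acute phase protein of stromal cells and macrophages, had 6224, 1425 and 2857 CPM against 6.38, 6.71 and 5.6 CPM (log2 difference 9.14, SE 0.70, adjusted p = 2.92e-06). Ptgs2, or COX-2, which makes prostaglandins, had 843, 222 and 461 CPM against 16.7, 19.8 and 16.1 CPM (log2 difference 4.86, SE 0.48, adjusted p = 1.32e-05). Il6 had 93.4, 5.1 and 15.3 CPM against at most 0.5 CPM (log2 difference 6.98, SE 1.33, adjusted p = 0.00105). Many of these were highest in replicate 1, where macrophage genes were also highest, and the part of those cells in the rise was not tested. Without the 2 libraries that stood apart, 27 were higher and 5 lower, with a median of 4.60. The chemokine Cxcl14 fell by 3.34, the alarmin Il33 by 1.59, and Cxcl15 had no read in the P plate, at least 103-fold lower.

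Complement and acute phase genes moved partly alike. Of 17 tested, 9 were higher (52.9%, against 30.5% over all genes tested) and 3 lower (17.6%, against 32.7%). Hp, haptoglobin, rose by 8.55, Cp, ceruloplasmin, by 7.0 and A2m by 5.93. C3, the central component, was abundant on both sides with 2224, 8599 and 4649 CPM against 5476, 6712 and 6231 CPM and did not pass. Of 19 interferon response genes 7 were higher (36.8%, near the 30.5% over all genes tested), led by Bst2 (3.62) and Isg15 (3.06). Only 1 was lower (5.26%, against 32.7% over all genes tested), and the median was 1.47. Of 24 immediate early and stress genes 16 were higher and none was lower. Junb rose from 8.76, 11.3 and 8.52 CPM to 168, 178 and 167 CPM (log2 difference 4.17, SE 0.27, adjusted p = 1.1e-06), while Fos and Jun did not pass.

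Genes of dividing cells were lower in the plates. Of 30 cell cycle genes, 26 were lower in the P plate and none was higher, with a median of -1.68. Mki67, which encodes Ki-67, had 53.6, 21.5 and 67.2 CPM against 204, 276 and 223 CPM (log2 difference -2.30, SE 0.34, adjusted p = 0.000205). Top2a fell by 2.11 (adjusted p = 0.00129) and Cenpf, a kinetochore gene, by 3.02. The replication licensing genes Mcm3 and Mcm6 fell less, by 0.76 and 0.97. Among the cyclins of the first growth phase and of entry into replication, Ccnd1, Ccnd2 and Ccne1 did not pass, and Ccne2 fell by 2.55 (adjusted p = 4.84e-05). Which cells of the strips carried this RNA was not tested.

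Genes of cell cycle arrest and p53 targets rose in 19 of 24 cases, and 4 fell. Cdkn2a, which encodes p16 and p19Arf, had 31.8, 20.2 and 24.9 CPM against 0.548, 0.542 and 0.603 CPM (log2 difference 5.49, SE 0.49, adjusted p = 7.22e-06). Cdkn1a, or p21, had 564, 165 and 337 CPM against 20.8, 28.4 and 25.9 CPM (log2 difference 3.83, SE 0.47, adjusted p = 5.87e-05). Cdkn2b, or p15, rose by 5.74 and Pmaip1, a death gene induced by p53, by 5.41. The inhibitors typical of tissue at rest went down: Cdkn1c (p57) fell by 2.50, Cdkn2c by 1.70 and Cdkn1b (p27) by 0.88. Lmnb1, the nuclear lamina gene that is low in senescent cells and also high in dividing ones, fell by 2.23 (adjusted p = 0.000119).

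**Figure D4:**
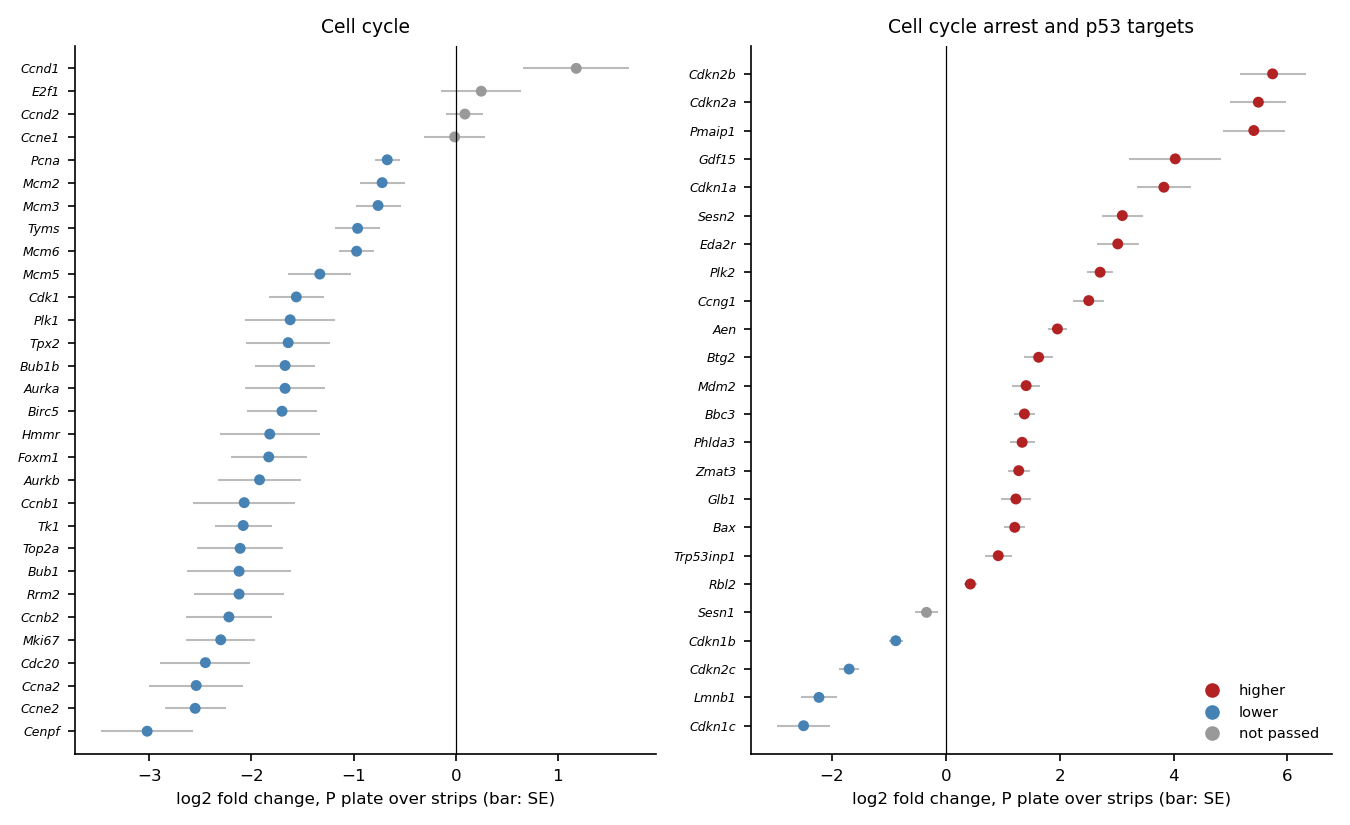
Log2 difference between P plate and strips, with SE, for 30 cell cycle genes and 24 genes of arrest and the p53 response. Cell cycle genes lie at or below 0 except Ccnd1, Ccnd2 and E2f1, and most arrest genes lie above 0, with Cdkn2b and Cdkn2a at the top.

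Genes of the non-muscle cytoskeleton were more often higher than lower. Of 31 genes 18 were higher (58.1%, against 30.5% over all genes tested) and 3 lower (9.68%, against 32.7%). Some small rises depended on the fit: Actb (0.53) lost its call in 10 of 17 alternative fits and Cnn2 (0.75) in 11. The tubulin genes Tuba1a (-1.43) and Tuba1b (-0.88) fell, though 26.2% and 27.4% of their exonic bases lie under exons of other genes. Myh9, non-muscle myosin, rose from 329, 301 and 325 CPM to 1282, 1216 and 1866 CPM (log2 difference 2.19, SE 0.19, adjusted p = 5.59e-06). Per kilobase of exon, Myh11 stood at 1563 CPM in strips and 97.9 CPM in the P plate, and Myh9 at 24.6 CPM and 113 CPM. Fscn1, an actin bundler, rose by 3.29, Tpm4 by 2.63 and Myh10 by 2.62. Vim, the filament of mesenchymal cells, had 1422, 1073 and 1587 CPM against 1365, 1255 and 1344 CPM and did not pass (0.04, adjusted p = 0.88). Actg1 was called lower by 1.70, but it has near-identical copies, reads with several placements were left out, and its value is uncertain.

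Collagens moved both ways: 10 of 25 were higher (40%) and 9 lower (36%), near the 30.5% and 32.7% over all genes tested. Their median of 0.19 became -0.10 when libraries were scaled by their totals. Col1a1 rose from 2545, 2298 and 2873 CPM to 5576, 4260 and 6011 CPM (log2 difference 1.04, SE 0.26, adjusted p = 0.00522), and Col1a2 by 1.14. Col3a1, its partner in gut wall fibres, fell from 6572, 6125 and 7224 CPM to 2572, 2403 and 3284 CPM (log2 difference -1.27, SE 0.24, adjusted p = 0.000969). No P plate library overlapped a strip for either gene.

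Several collagens with more than 1 chain moved as a unit. Col6a1 (-2.29), Col6a2 (-2.98) and Col6a3 (-1.85), the chains of the pericellular collagen VI, all fell. The fibril-associated Col14a1 fell from 746, 860 and 753 CPM to 58.5, 32.6 and 21 CPM (log2 difference -4.39, SE 0.41, adjusted p = 9.28e-06), while Col12a1, closely related, rose by 2.85 (adjusted p = 0.000434). The basement membrane pair Col4a1 (1.23) and Col4a2 (1.18) rose, and the pair Col4a3 (-3.21) and Col4a4 (-4.95) fell. Col8a2 (3.47), Col8a1 (1.90) and Col5a2 (1.89) rose.

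Among 45 matrix glycoprotein, crosslinking and elastic fibre genes, 21 were higher (46.7%, against 30.5% over all genes tested) and 10 lower (22.2%, against 32.7%). Thbs1, which activates latent TGF-beta, had 8280, 7033 and 7857 CPM against 83.9, 110 and 93 CPM (log2 difference 6.34, SE 0.30, adjusted p = 4.05e-07). Fn1 had 15495, 3868 and 12397 CPM against 442, 379 and 464 CPM (log2 difference 4.63, SE 0.48, adjusted p = 1.94e-05). Both were far above the strips in every library. Lox, which crosslinks collagen and elastin, rose by 4.43 and the small proteoglycan gene Bgn by 4.50. Tnc, the tenascin of remodelling tissue, rose by 3.25, and Tnxb, the tenascin of settled connective tissue, fell by 4.92, from 381, 342 and 421 CPM to 17.8, 12.8 and 7.24 CPM. Sparcl1 fell by 3.96 while its relative Sparc was called 0.82 higher, a call lost without P plate replicate 3 (0.53, adjusted p = 0.101), without any 1 strip and with library totals as the scale (0.55). Of the laminins, Lama2 (-3.13), Lamb2 (-0.97) and Lamc1 (-1.01) fell and Lamb1 (1.05) rose. Among 18 integrins 7 rose (38.9%), led by the collagen receptor Itga11 (5.73) and by Itgb5 (2.54). Another 5 fell (27.8%), led by Itgb3 (-3.19) and Itga9 (-2.66). These shares were near those over all genes tested.

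Most proteases that cut matrix, and most of their inhibitors, were higher: 27 of 33 tested rose and 5 fell, with a median of 2.59. Mmp3, or stromelysin 1, had 83.5, 78.8 and 129 CPM against 0.137, 0.0417 and 0.186 CPM (log2 difference 9.38, SE 0.95, adjusted p = 1.64e-05). Mmp12, the elastase of macrophages, had 276, 35 and 93.5 CPM against 0.164, 0.0834 and 0.0696 CPM (log2 difference 10.39, SE 1.09, adjusted p = 2.06e-05). Mmp13, a collagenase, had 37, 2.98 and 25.8 CPM against 0.0821, 0.292 and 0.128 CPM (log2 difference 7.18, SE 1.01, adjusted p = 0.00014). For each, the lowest P plate library was above the highest strip.

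An inhibitor of these proteases rose as well. Timp1, an inhibitor of matrix metalloproteases, had 1020, 385 and 1338 CPM against 14.1, 13.9 and 10.9 CPM (log2 difference 6.14, SE 0.57, adjusted p = 9.14e-06). The plasminogen activator Plau rose by 4.11 and its receptor gene Plaur by 3.42. The membrane-bound Mmp15 (-5.81) and Mmp16 (-2.45) and the aggrecanase Adamts15 (-3.47) fell, as did the inhibitor Timp4 (-2.90), which was under 0.5 CPM in each of the 6 libraries compared.

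A motif of the AP-1 type, TGANTCA on either strand, lay in the promoter window of 8 of 23 matrix protease genes with a RefSeq promoter (34.8%), against 2425 of all 27025 genes (8.97%) and 3 of 26 contractile genes (11.5%). Of these, 5 are neighbours in the protease cluster on chromosome 9, and they are shown because Mmp13, Mmp12, Mmp3 and Mmp10 rose together by 7.18 to 10.39. The stretches are on the plus strand of GRCm38.p6 with the motif in capitals, Mmp13 at chr9:7272414-7272513, Mmp12 at chr9:7347274-7347373, Mmp3 at chr9:7445722-7445821, Mmp1a at chr9:7464025-7464124 and Mmp10 at chr9:7502236-7502335.
Mmp13: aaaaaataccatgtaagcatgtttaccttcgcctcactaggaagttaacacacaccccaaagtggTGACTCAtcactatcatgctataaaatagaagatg
Mmp12: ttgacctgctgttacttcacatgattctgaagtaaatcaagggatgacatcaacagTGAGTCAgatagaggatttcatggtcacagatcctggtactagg
Mmp3: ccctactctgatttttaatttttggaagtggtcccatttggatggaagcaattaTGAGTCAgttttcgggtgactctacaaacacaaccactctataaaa
Mmp1a: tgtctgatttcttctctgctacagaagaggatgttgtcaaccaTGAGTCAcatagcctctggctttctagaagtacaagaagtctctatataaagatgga
Mmp10: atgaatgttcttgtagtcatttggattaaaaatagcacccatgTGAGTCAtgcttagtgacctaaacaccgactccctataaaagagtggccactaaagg
The motif begins 35, 44, 46, 73 and 63 bases before the start in this order. Mmp1a carries it like its neighbours but had 1 read in the P plate and none in strips, so it was not tested. Mmp8, in the same cluster, has no match in its window and had 6.57, 3.81 and 6.31 CPM in the P plate against 3 reads in the strips together (adjusted p = 9.56e-05).

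**Figure D5:**
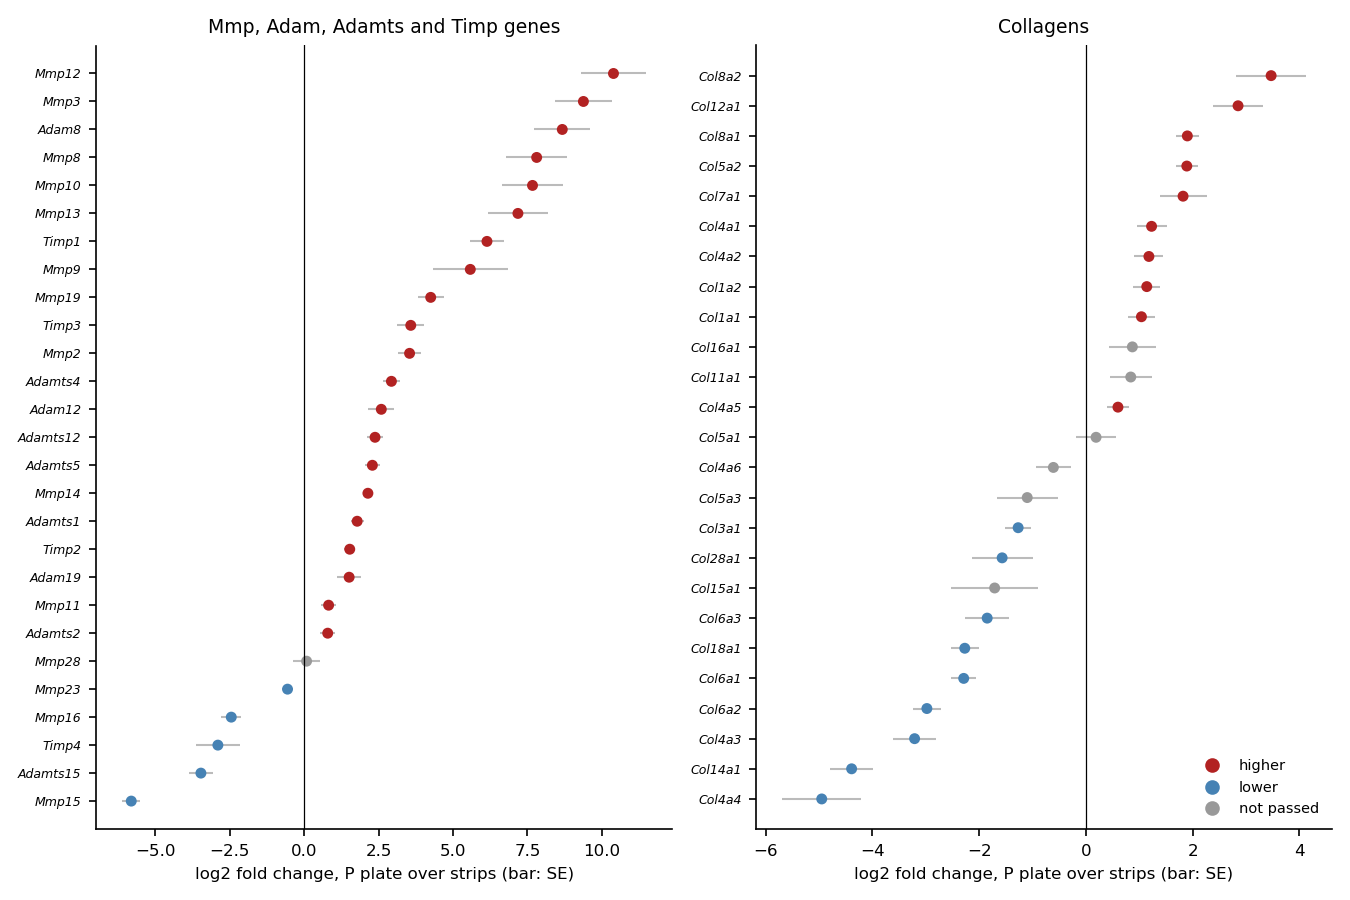
Log2 difference between P plate and strips, with SE, for the Mmp, Adam, Adamts and Timp genes of the matrix protease list and for collagens. Proteases lie mostly above 0, with Mmp12 and Mmp3 highest, and collagens lie on both sides of 0, with Col4a4 and Col14a1 lowest.

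Of 20 genes of TGF-beta ligands, receptors and targets, 15 were higher and 3 lower. Tgfb1 rose by 2.63 and Tgfb3 by 1.81, while Tgfb2 fell by 0.81. The receptor Tgfbr2 (1.15) rose, as did the feedback inhibitor Smad7 (2.04) and the activin subunit Inhba (3.60). Tgfbi, a matrix protein named for its induction by TGF-beta, fell from 421, 421 and 436 CPM to 77.5, 68.1 and 99.8 CPM (log2 difference -2.38, SE 0.26, adjusted p = 3.03e-05). All P plate libraries were below all strips for it.

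Targets of the mechanically regulated coactivator YAP were higher in 13 of 21 cases and lower in 4. Ccn2, or CTGF, had 1908, 984 and 2231 CPM against 63.9, 67.2 and 66.1 CPM (log2 difference 4.70, SE 0.39, adjusted p = 4.79e-06). Ccn1 rose by 4.63 and Ankrd1 by 5.97. The BMP list was split. Of 25 genes, 11 were lower (44%, against 32.7% over all genes tested), 4 were higher (16%, against 30.5%) and 10 did not pass. The median was 0.21, with Bmp5 (-5.79), Bmp7 (-6.54), Chrdl1 (-5.73) and Nog (-3.06) falling and Id3 (2.14) rising. The annotation puts 46.7% of the exonic bases of Bmp5 under exons of Gm26903, so its value is uncertain. Without the 2 libraries that stood apart, 7 BMP genes were higher. Of 30 Wnt genes 9 were lower (30%, near the 32.7% over all genes tested) and 4 were higher (13.3%, against 30.5%). Among the lower were Wnt2b (-2.67) and the feedback inhibitor Nkd1 (-2.86), and among the higher was Wnt4 (2.25). Wif1, a Wnt inhibitor, had 2 reads in the P plate and 10.9, 12.5 and 13.8 CPM in strips.

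Genes of growth factors and related proteins moved both ways. Of 34 genes, 13 were higher (38.2%) and 8 lower (23.5%), against 30.5% and 32.7% over all genes tested. Igfbp3 had 1198, 3594 and 3729 CPM against 30.2, 23.4 and 33.6 CPM (log2 difference 6.61, SE 0.57, adjusted p = 5.57e-06). Igfbp5 had 7.86, 21.6 and 33.2 CPM against 1403, 1643 and 1567 CPM (log2 difference -6.20, SE 0.61, adjusted p = 1.3e-05). These 2 binding proteins for insulin-like growth factors were in opposite order on the 2 sides. Fgf2 rose by 4.90 and Fgf13 fell by 6.61. Bdnf rose by 4.57, Vegfa by 3.39 and Fgf10 by 4.83. Kitl, the ligand of the Kit receptor, fell by 2.69.

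Glucose use genes rose while respiratory chain genes fell. Of 25 glycolysis genes, 14 were higher and 4 lower, and of 34 nuclear genes of oxidative phosphorylation, 29 were lower and 1 higher, with a median of -0.91. Slc2a1, the general glucose carrier GLUT1, had 645, 257 and 411 CPM against 13.9, 14.1 and 15.1 CPM (log2 difference 4.93, SE 0.76, adjusted p = 0.000262). Slc2a4, the insulin-responsive carrier GLUT4 of muscle and fat, had 1.94, 3.32 and 4.66 CPM against 154, 180 and 187 CPM (log2 difference -5.72, SE 0.58, adjusted p = 1.65e-05). No library of 1 side reached the other for either carrier.

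Hk2 rose by 3.02, Pfkl by 2.65, Ldha by 2.34 and the lactate exporter Slc16a3 by 4.74, and the muscle form Pfkm (-1.0) and Ldhb (-1.20) fell. Gapdh, Pgk1, Pgam1 and Eno1 were called higher too, but they have near-identical copies and are uncertain. Of 16 hypoxia targets 12 were higher, with Adm at 4.97 and Ero1l at 3.34, and 7 were without the 2 libraries that stood apart or without strips replicate 3 alone.

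Falls in the respiratory chain varied in size, and 15 of the 34 nuclear genes were at least 2-fold lower. Cox7a1, a muscle form of a cytochrome oxidase subunit, fell by 3.15. Ndufb8 had 63.2, 54.2 and 65.1 CPM against 288, 279 and 268 CPM (log2 difference -2.19, SE 0.14, adjusted p = 9.62e-07). Ppargc1a, the coactivator of mitochondrial biogenesis, fell from 16.7, 22.2 and 23.4 CPM to 0.575, 1.72 and 0.701 CPM (log2 difference -4.38, SE 0.51, adjusted p = 3.97e-05). All 7 tested genes of the mitochondrial genome were lower, by 0.67 to 1.43. The smallest fall, that of mt-Co1, had libraries that overlapped between the sides, and its call was lost in 6 of 17 alternative fits, such as that without strips replicate 1 (-0.51, adjusted p = 0.125). The other 6 genes had almost no reads in any of the 6 libraries, so their level is unknown. Creatine kinases fell, Ckb by 3.42, and Ckm from 132, 170 and 138 CPM to 10 reads in the P plate libraries together.

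The NRF2 antioxidant list ran higher, 14 of 18 against 1. Hmox1, heme oxygenase, rose from 6.49, 6.05 and 5.64 CPM to 979, 392 and 386 CPM (log2 difference 6.60, SE 0.80, adjusted p = 5.37e-05). The ferritin genes Fth1 (3.51) and Ftl1 (3.20) rose. The annotation puts 34.6% of the exonic bases of Ftl1 under exons of Gm10252 or Gm22133, so its value is uncertain. Nqo1, a standard NRF2 target, fell by 0.94 (adjusted p = 0.00255). Of 28 cholesterol and fatty acid synthesis genes 10 were higher (35.7%, near the 30.5% over all genes tested) and 5 lower (17.9%, against 32.7%). Scd1 (2.67) rose, and Hmgcs1 (-0.54) and Elovl6 (-1.19) fell. Of 17 clock genes 6 were higher and 6 lower, 35.3% each and near the shares over all genes tested. With library totals as the scale, 3 were higher and 7 lower.

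Hox genes record position along the gut by their combination. Of 25 tested, 12 were lower (48%, against 32.7% over all genes tested) and 2 higher (8%, against 30.5%). The genes that fell were Hoxa2 to Hoxa5, Hoxb2 to Hoxb5, Hoxc4, Hoxc5, Hoxd3 and, at a level near 0, Hoxd10. Hoxb5 had 6.02, 6.73 and 9.79 CPM against 96.4, 87.4 and 122 CPM (log2 difference -3.76, SE 0.21, adjusted p = 6.32e-07). Hoxa5 (-3.51), Hoxa4 (-3.39), Hoxa2 (-3.28) and Hoxd3 (-3.75) fell with it. The annotation puts 62.8% of the exonic bases of Hoxd3 and 52.9% of those of Hoxb3 under exons of other genes, so their levels are uncertain. Hoxb9, further along the same cluster as Hoxb5, rose from 2.46, 1.29 and 1.58 CPM to 53.2, 11.4 and 22.5 CPM (log2 difference 4.02, SE 0.55, adjusted p = 0.000123). Hoxb6, Hoxb7 and Hoxb8, between them, did not pass. Strips replicate 2 differed from the other strips here, with Hoxc8 at 4.8 CPM against 55.7 and 36.2 CPM, and 7 Hox genes were higher without the 2 libraries that stood apart.

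The other medium on the same plastic was set beside these values. The M plate libraries are compared with the same 3 P plate libraries, so the comparisons are not independent, and 4400 of 17700 genes (24.9%) passed for M plate against P plate in either direction. Synm had 169, 87.7 and 106 CPM in the M plate and rose by 4.89 over the P plate (adjusted p = 0.000428), and Myocd was higher by 2.71 (adjusted p = 0.0177). Kit was higher by 5.08, Chrm2 by 3.92, Igfbp5 by 4.87, Col14a1 by 4.32 and Col3a1 by 1.89, and each passed. These are genes that were lower in the P plate than in strips. Of those that were higher, M plate minus P plate gave log2 differences of -4.34 for Ptgs2, -3.16 for Slc2a1, -4.87 for Hmga2 and -3.21 for Mmp13, and each passed the test.

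Other differences were not detected between the media. Myh11 differed by 0.54 between M plate and P plate (adjusted p = 0.44), and Mki67 by 0.25 (adjusted p = 0.615). Mmp3 differed by -1.09 (adjusted p = 0.219). Acta2 was lower in the M plate, with a log2 difference of -1.21 from the P plate (adjusted p = 0.0354), further from strips than the P plate was. A p that misses the threshold does not show that the media act alike on these genes.

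Spread was wider among the P plate libraries than among strips, and most of the excess was in pairs with P plate replicate 1. A range over 4-fold among the 3 libraries was seen for 2189 genes in the P plate and 407 in strips. P plate replicate 1 differed by over 4-fold from replicates 2 and 3 at 1543 and 1462 genes, while replicates 2 and 3 differed so at 341, and pairs of strips at 36 to 331. Ednrb, the endothelin receptor needed for the enteric nervous system, had 508, 29.1 and 4.59 CPM in the P plate, and without replicate 1 it was called lower than strips (-2.95, adjusted p = 0.00585). Eln, elastin, had 30.7, 893 and 351 CPM, and it was called lower without replicate 2 (-2.31, adjusted p = 0.0276). Pdlim3, a contractile list member, had 1.42, 198 and 51.3 CPM, and it was no longer called without replicate 3 (-3.13, adjusted p = 0.0655). By biotype, 32.6% of protein-coding genes were higher and 32.3% lower, while of 546 long intergenic RNAs 84 were higher and 239 lower.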

How the data were processed

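RNA of 12 libraries in 4 groups of 3 was measured by sequencing, and 6 libraries (P plate and strips) were compared here. The authors deposited whole-number counts per gene, and STAR 2.6.0 and GRCm38 (mm10) are named in the submitters' processing notes. The sources used here do not name the counting program, the annotation, the use of strand or how repeat runs were joined. The 5 summary entries of the count table were left out: reads on no gene were 4.2% to 5.89% of P plate and 6.82% to 7.87% of strip reads, and reads with several placements were not counted to genes. Symbols came from GENCODE M21 for 52403 of 52550 genes.

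Counts were fitted with edgeR 4.0.16 (R 4.3.3): filterByExpr, TMM scaling, 1 coefficient per group over all 12 libraries, and the quasi-likelihood F test of P plate minus strips, with Benjamini-Hochberg adjustment over 17700 genes and a threshold of 0.05. Unless another fit or comparison is named, adjusted p-values and log2 differences come from that fit. The SE is the log2 difference divided by the root of F. The method was tested on simulated data in which few genes changed, equally up and down. That setting cannot test the scaling where many genes differ, as here. Fold bounds for genes without reads on 1 side use 3 counts over the group. Samples were grouped by medium and vessel in the labels, and p-values rest on 3 libraries a side with 8 residual degrees of freedom.

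The comparison and the 42 gene lists (989 genes, 928 tested) were chosen with earlier results of these data known. Genes named are the 10 largest changes each way with at least 20 CPM and no overlap, the 5 most abundant of each side, genes without reads on 1 side, the 5 largest called members of each list (3 in the rarer direction, at least 2 CPM), a panel of known markers, and members that did not pass. The following were named after their values were seen: Adrb3, Atp2b4, Cacna1c, Cd163, Cdkn1b, Col1a2, Col4a1, Col4a2, Col6a1, Col6a2, Col6a3, Csf1r, Dmd, Ednrb, Eln, Eno1, Foxf1, Gapdh, Gfra3, Gucy1a1, Gucy1b1, Hoxa3, Hoxb2, Hoxb3, Hoxb4, Hoxc4, Hoxc5, Hoxc8, Hoxd10, Kcnma1, Kcnn3, Kitl, Lamb1, Lamb2, Lamc1, Ldha, Lmod1, Mcm3, Mcm6, Mmp10, Mrtfa, Mrtfb, Myl6, Myl9, Myom1, Pdlim3, Pgk1, Plau, Plaur, Ryr2, Tgfb1, Tgfb3, Tgfbr2, Thy1, Timp4, Tpm1, Cd3e and mt-Co1. So were Actb and Cnn2. Promoters were RefSeq sequences of GRCm38.p6, searched on both strands. Alternatives changed scaling, filter, tool (DESeq2 1.42.0, limma 3.58.1 with voom), libraries in the fit and each replicate, and 1 alternative, leaving out P plate replicate 1 and strips replicate 2 together, was added after seeing the data.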

Additional observations from a re-analysis of the deposited data

How the results depend on the processing

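The 17 alternative fits made no call opposite to the main ones, and the count of genes higher in the P plate stayed within 1.5 times of 5390 except for 3374 with a replicate block within the 6 libraries and 2716 when a call also needed a 2-fold change. Leaving out 1 library gave 4622 to 5192 genes higher and 5441 to 6187 lower. DESeq2 gave 5488 and 6103, and voom 5112 and 5953. Same-numbered P plate and strip libraries correlated at only 0.021, 0.0151 and 0.0284 in their deviations from the group means, so the numbers were not used as pairs, although replicate 2 had the lowest Y-linked sum in each group and a shared source of same-numbered libraries was not tested further. The replicate block over all 12 libraries gave 5192 higher and 5763 lower, and that within the 6 kept 70.4% of the calls. A call lost there does not by itself show a smaller difference, and the sizes were not compared. Of 713 called genes in the lists or named, 568 were called in every alternative.

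Several genes that did not pass were called lower under another setting. Without P plate replicate 1, and without it and strips replicate 2 together, the log2 differences were -2.95 and -2.81 for Ednrb (0.50 with all libraries), -1.73 and -1.69 for Thbs4, -0.87 and -0.86 for Mmp28 and -2.88 and -2.80 for Nos2. Leaving out any 1 library gave -2.95 to 1.03 for Ednrb, -1.73 to 1.20 for Thbs4, -0.87 to 0.47 for Mmp28, -2.88 to 1.16 for Nos2 and -2.12 to 3.17 for Fgf7, with the low end without P plate replicate 1 in each case. Sdha was at -0.23 with library totals. The cause was not tested. At 21396485 reads, the shallowest strip limits what can be said of genes under about 1 CPM.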

Other observations

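Xist, transcribed from the inactive X, and 4 Y-linked genes were both read in all 12 libraries. Xist stood at 255, 285 and 126 CPM in the P plate and 268, 246 and 157 CPM in strips, and the 4 Y-linked genes summed to 153, 66.9 and 139 CPM and 98.9, 56.4 and 97.7 CPM. In the M plate the sums were 161, 62.5 and 145 CPM and in the M scaffold 137, 62.1 and 122 CPM, so replicate 2 had the lowest Y-linked sum in each group.

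Plekhh2 differed by replicate number: it had 2825, 125 and 97.5 CPM in the P plate, 788, 69.4 and 59.8 CPM in strips and 703, 93.9 and 113 CPM in the M scaffold, with replicate 1 highest in each. The M plate departed from this, with 1253, 2914 and 1612 CPM. The gene was chosen after its values were seen.

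Of 350 processed pseudogenes tested, 116 were higher in the P plate (33.1%) and 39 lower (11.1%), with a median log2 difference of 0.62. Of 552 antisense genes 66 were higher and 208 lower. The long intergenic RNAs had 15.4% higher and 43.8% lower, with a median of -0.75. The use of strand in counting is not given, so antisense reads cannot be told apart from those of their partners.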
